A study of Mus musculus with 12 samples.

Results

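The hypothalamic transcriptome of mice with diet-induced obesity that received resveratrol (Ob + RSV) was compared with that of lean controls (C) across all genes, to ask what differed from control under diet plus resveratrol. The comparison used 6 of the 12 libraries of the series, 3 of Ob + RSV and 3 of C, and its members were the 33534 of 78334 genes with at least 10 reads in total over the 9 libraries that shared the fit. All mice were C57BL/6 males. Ob + RSV mice were given a high-fat diet (HFD) with 60% of its kcal from fat from 8 weeks of age, followed by RSV at 2.25 mg/kg by daily gavage for 28 days from 16 weeks of age. Untreated mice with obesity (Ob) had the same diet and a gavage of vehicle, and C mice had standard chow and the same vehicle gavage. The labels give the HFD a total length of 8 weeks and also place the start of the gavage after those 8 weeks, whereas the study's own account has RSV mice on the HFD through the weeks of gavage. Each library came from the hypothalamus of 1 mouse, so the tests measure the spread between 3 mice per group, and diet and RSV cannot be told apart in Ob + RSV vs. C alone.

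RSV is a plant polyphenol that has been studied for its action on the deacetylase SIRT1 and on the energy sensor AMPK. The hypothalamus holds the neurons that control feeding, water balance and pituitary output, and it surrounds the third ventricle of the brain. That ventricle is lined by ependymal cells, whose motile cilia beat and move the cerebrospinal fluid, and by tanycytes, which line its floor. A motile cilium is built on a ring of microtubule doublets that carry dynein motors, linked by a regulatory complex, with radial spokes pointing to a central pair of microtubules. In ependymal cells this gene program is switched on by the transcription factors Foxj1, Rfx2 and Rfx3.

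Total counts were 26284661, 21764016 and 17006586 in Ob + RSV and 23470800, 17575625 and 20868779 in C, and the scaling factors of the fit lay close together. Reads were found for 24450 to 32705 genes per Ob + RSV library and for 25979 to 36541 genes per C library. Ob + RSV replicate 2 stood apart, with only 7.30% of its detected genes under 10 reads, against 29.4% and 37.5% in the other Ob + RSV libraries and 20.3% to 43.2% in C. Many genes of low level therefore had no read at all in that library. Correlations between libraries of different groups (0.968 to 0.988, on log2(CPM + 1), where CPM is the count scaled to the library total) spanned those within C (0.974 to 0.987) and within Ob + RSV (0.970 to 0.981). Of the peptide genes that define the hypothalamus, Oxt and Avp were abundant in every library. Others were not, with Pomc at 2.53 CPM in Ob + RSV replicate 3 and Npy at 7.17 CPM in C replicate 2. Agrp was at most 2.11 CPM in the libraries compared. Oxt (oxytocin) had 404, 622 and 202 CPM in Ob + RSV, against 461, 739 and 556 CPM in C. Avp (vasopressin) had 711, 629 and 274 CPM in Ob + RSV, against 454, 624 and 784 CPM in C.

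No gene was a DEG in Ob + RSV vs. C, that is, 0 of 33534 (0%) reached an adjusted p under 0.05 with a log2 fold change (log2FC) of at least 1 in either direction in edgeR's quasi-likelihood test. The smallest adjusted p was 0.627. The text of the study reports a large set of DEGs for this comparison, from DESeq2 at the same thresholds. Why the counts differ was not tested. At an unadjusted p under 0.05, 962 genes (2.87%) differed, of which 494 (1.47%) were higher and 468 (1.40%) lower in Ob + RSV. Run here, DESeq2 gave 0 DEGs on 9 libraries and 1 on the 6 libraries, and 906 and 768 genes at an unadjusted p under 0.05. With genes of at least 1 read kept in the edgeR fit, 32 genes were DEGs, of which 17 had over 50% of their reads in 1 library. The smallest adjusted p values of the 32 belonged to ENSMUSG00000135935 (log2FC −2.30), ENSMUSG00000140457 (2.07) and Gm15564 (1.79), each with over 50% of its reads in 1 library. So was ENSMUSG00000119584 (1.98), the gene with the most reads in Ob + RSV replicate 2 (2.78% of its counts). Among the genes of the 32 without such a library were Tmem212, Ttc21a, Dnah11, Ak7, Col5a3 and Gm47283, which are described below. All 3 Ob + RSV libraries lay above all 3 C libraries for 687 genes (2.05%) and below them for 1134 genes (3.38%). Because none of these genes passed the adjusted threshold in the fit used here, which kept genes with at least 10 reads, the values below are given as differences at an unadjusted p, beside the share of all genes that met the same rule.

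The balance of directions differed by level and by class of gene. Among 14064 protein-coding genes with a mean of at least 1 CPM, 73 were higher and 208 lower at an unadjusted p under 0.05. Together these were 2.00% of that class, against 2.87% of all tested genes (1.47% higher and 1.40% lower). Set against these shares, the class had few higher genes rather than many lower ones. Below 1 CPM, 376 genes were higher and 236 lower (3.88% in either direction). Of 1620 transcripts of the annotation class TEC, unverified models of mostly non-coding RNA, 69 were higher and 18 lower (5.37%). For antisense genes, 34 of 1818 were higher and 27 lower (3.36%), near the share of all genes. The median log2FC over all tested genes was −0.0026, a value that the TMM scaling of the fit holds near 0.

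**Figure D1:**
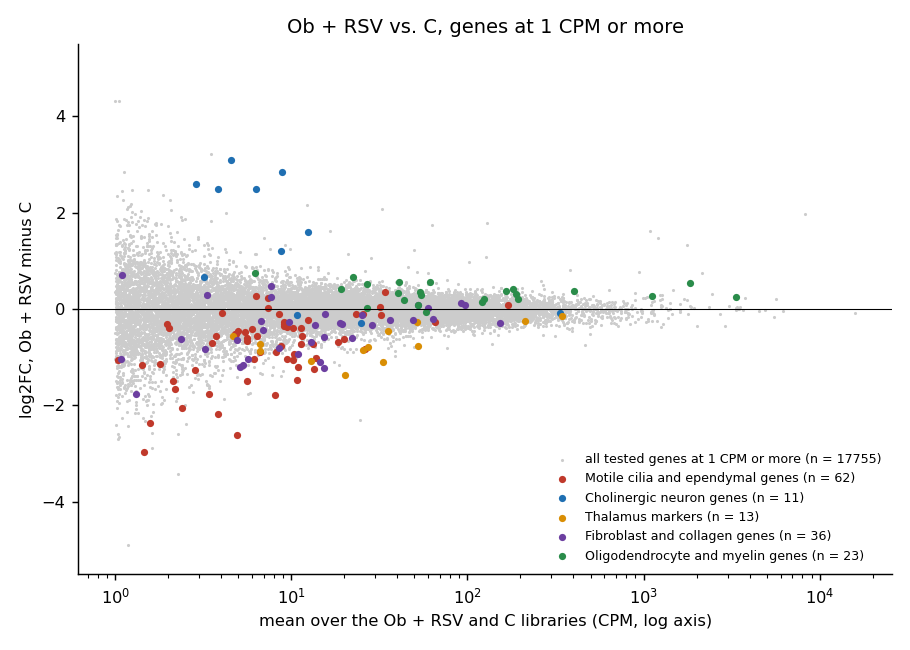
Each grey point is 1 of 17755 genes with a mean of at least 1 CPM, plotted as the log2FC of Ob + RSV minus C (vertical axis) against the mean CPM over the 6 libraries (horizontal log axis), and coloured points are members of 5 gene lists. Motile cilia genes (red) lie mostly below 0, cholinergic genes (blue) reach 3.10, and 1 gene lies outside the plotted range of 5.5.

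Genes of motile cilia and ependymal cells were lower in Ob + RSV as a group. Of 66 genes on this list, 65 were tested, and 59 of them had a log2FC below 0. At an unadjusted p under 0.05, 22 members (33.8%) were lower and 0 were higher in Ob + RSV, against 1.40% of all tested genes for lower, and 23 members had all Ob + RSV libraries below all C libraries, against 3.38% of all genes. The median log2FC of the list was −0.67, against −0.0026 for all genes. The summed level of the list was 667, 783 and 623 CPM in Ob + RSV, against 844, 907 and 948 CPM in C, and the groups did not overlap. In whole tissue, fewer ependymal cells and less RNA per cell cannot be told apart.

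Tmem212, a membrane protein gene that marks ependymal and other multiciliated cells, had the smallest p of the list. It had 0.989, 0.368 and 2.82 CPM in Ob + RSV, against 5.07, 8.65 and 11.7 CPM in C. Each Ob + RSV library was below each C library, and the log2FC was −2.61 (SE 0.61, unadjusted p = 0.000162 from edgeR), a 6.11-fold lower level. Ttc21a, which belongs to the family of intraflagellar transport genes, had 1.37, 4.92 and 4.76 CPM in Ob + RSV, against 12.5, 13.1 and 11.9 CPM in C. The C values lay within a narrow range well above Ob + RSV, with a log2FC of −1.78 (SE 0.42, unadjusted p = 0.000216). Ccdc170, a coiled-coil protein gene, had 0.19, 0 and 0.823 CPM in Ob + RSV, against 4.05, 2.62 and 1.05 CPM in C. Its log2FC of −2.97 (SE 1.00, unadjusted p = 0.00568) rests on 19 reads in Ob + RSV and 163 in C.

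The dynein arms hold the motors that bend the cilium. Of 12 tested genes for their chains, 5 were lower at an unadjusted p under 0.05, against 1.40% of all genes. A log2FC below 0 was seen for 10, with a median of −0.89 over the 12. Dnah11, an outer arm heavy chain, had 0.685, 2.07 and 1.41 CPM in Ob + RSV, against 6.22, 6.09 and 6.42 CPM in C. The C libraries were almost equal and all Ob + RSV libraries were below them, with a log2FC of −2.18 (SE 0.52, unadjusted p = 0.00025), or 4.52-fold lower. Dnah9, another outer arm heavy chain, had 4.38, 7.86 and 6.17 CPM in Ob + RSV, against 12.2, 12.4 and 13.4 CPM in C, and a log2FC of −1.04. Dnah2 and Dnah12, heavy chains of the inner arms, had log2FCs of −0.94 and −1.76, and Dnali1, a light intermediate chain, had −1.05. Not every chain passed. Dnah7a, with 6.73, 8.82 and 6.59 CPM in Ob + RSV against 7.16, 5.86 and 9.01 CPM in C, overlapped fully (log2FC 0.01), and Dnah1 had a log2FC of −0.26.

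Of 6 genes of the links and rulers that space the dyneins, 3 were lower, against 1.40% of all genes. Iqca had 0.533, 0.965 and 1.29 CPM in Ob + RSV, against 3.54, 5.18 and 2.88 CPM in C (log2FC −2.06, unadjusted p = 0.00317). Drc7, of the nexin-dynein regulatory complex, had 3.35, 1.84 and 3.59 CPM in Ob + RSV, against 7.97, 9.62 and 7.24 CPM in C (log2FC −1.48). Drc3, of the same complex, had 10.2, 9.83 and 9.82 CPM in Ob + RSV, against 14.5, 15.6 and 19.3 CPM in C (log2FC −0.72). None of these overlapped between the groups, whereas Drc1 did, with a log2FC of −0.10, as did Ccdc39, with 0.05. Among 9 genes of the central pair, 3 were lower, against 1.40% of all genes, and all 9 had a log2FC below 0 (median −0.67). Cfap54 had 5.63, 4.5 and 9.58 CPM in Ob + RSV, against 14.1, 16.6 and 15.1 CPM in C (log2FC −1.21, unadjusted p = 0.00189). Cfap65 had a log2FC of −0.83 and Spag16 of −1.67, while Hydin, another component of this structure, had −0.56 and did not pass (unadjusted p = 0.246).

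Of 4 radial spoke genes, 1 was lower, against 1.40% of all genes. This was Rsph4a, with 6.47, 2.44 and 10.9 CPM in Ob + RSV against 10.7, 13.8 and 17.3 CPM in C (log2FC −1.06, unadjusted p = 0.0251). Rsph9, of the same spokes, had 42, 52.4 and 20.2 CPM in Ob + RSV against 26.3, 32.5 and 31.6 CPM in C, a log2FC of 0.35. Ak7, an adenylate kinase of motile cilia, had 2.59, 6.57 and 8 CPM in Ob + RSV, against 13.9, 15.6 and 17.6 CPM in C, with no overlap (log2FC −1.47, unadjusted p = 0.00117). Cfap44, which tethers an inner dynein, had 3.69, 10.1 and 10.2 CPM in Ob + RSV, against 19, 12.9 and 24.8 CPM in C (log2FC −1.25, unadjusted p = 0.00844). Ccdc153, a marker of ependymal cells, had 7.08, 9.24 and 10.9 CPM in Ob + RSV, against 15.9, 20.7 and 18.9 CPM in C (log2FC −1.03, unadjusted p = 0.0107). Rarres2, the secreted protein chemerin, which ependymal cells and tanycytes express, had a log2FC of −0.72, with 9.63, 6.94 and 9.06 CPM in Ob + RSV against 17.3, 15.8 and 9.49 CPM in C. The remaining lower members were Armc4 (−2.37), 1700012B09Rik (−1.26) and Ccdc146 (−1.49).

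The 8 tektins and microtubule inner proteins on the list all had log2FCs below 0, from −1.17 to −0.11, and none passed an unadjusted p of 0.05. The same held for the 3 transcription factors of the program. Foxj1 had 16.1, 14.8 and 16.5 CPM in Ob + RSV, against 30.2, 26.5 and 16 CPM in C (log2FC −0.61, unadjusted p = 0.142). C replicate 3 lay within the Ob + RSV range. Rfx2 had a log2FC of −0.77 (unadjusted p = 0.136) and Rfx3 of −0.09. Tppp3, a microtubule protein also made by oligodendrocytes, was the most abundant member with 103 to 224 CPM in Ob + RSV and 149 to 181 CPM in C, and had a log2FC of 0.09.

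**Figure D2:**
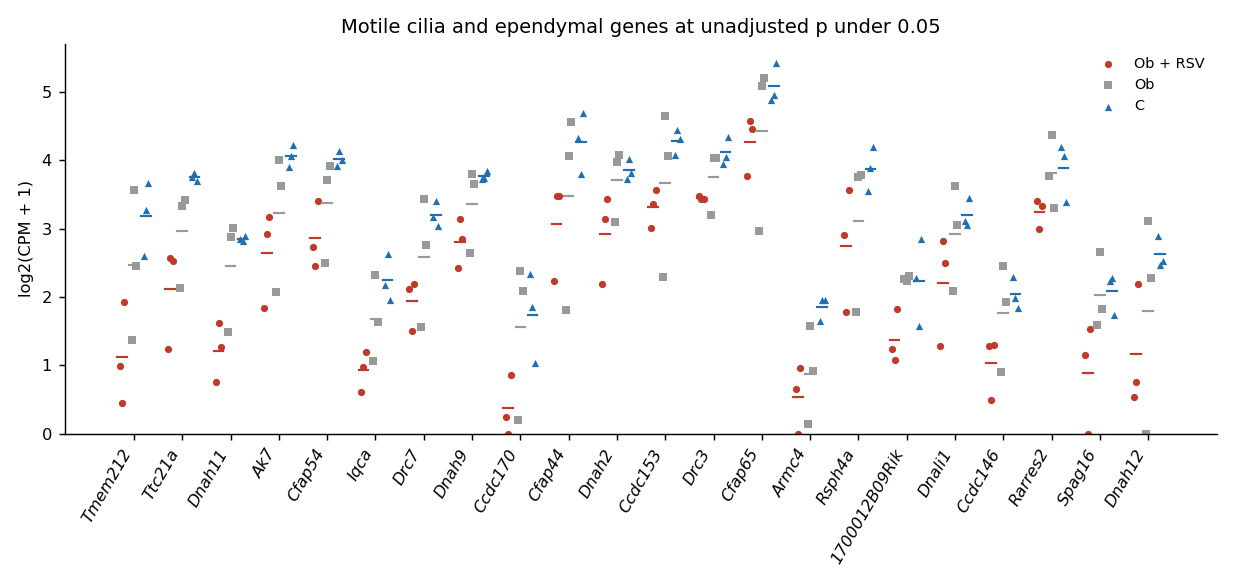
log2(CPM + 1) of the 22 motile cilia and ependymal genes at an unadjusted p under 0.05 in Ob + RSV vs. C, ordered by p, with 1 point per library (Ob + RSV circles, Ob squares, C triangles) and a bar at the mean of each group. Ob + RSV lies lowest for nearly every gene, while the 3 Ob libraries are spread widely and Ob replicate 1 is often as low as Ob + RSV.

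In Ob vs. C, which shares the C libraries, 0 members of this list were lower and 1 was higher at an unadjusted p under 0.05, against 1.40% and 1.35% of all genes, and the median log2FC was −0.18. In Ob + RSV vs. Ob, which shares the Ob + RSV libraries, 15 were lower and 0 higher, against 1.50% and 1.66% of all genes, and the median log2FC was −0.46. Tmem212 had a log2FC of −2.61 in Ob + RSV vs. C, −0.53 in Ob vs. C, and a log2FC of −2.08 in Ob + RSV vs. Ob. For Dnah11 these were −2.18, −0.27 and −1.90, and for Ttc21a −1.78, −0.73 and −1.05. The summed level of the list in Ob was 789, 1003 and 889 CPM, above every Ob + RSV library and overlapping C. Ob replicate 1 was only just above the 783 CPM of Ob + RSV replicate 2. For Cfap44 (2.52 CPM) and Ccdc153 (3.92 CPM), among others, Ob replicate 1 was below every Ob + RSV library. For Tmem212, Dnah11 and Ttc21a it lay within the Ob + RSV range.

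Because Foxj1 and the RFX factors act on promoters, those of the cilia genes were read from RefSeq (mouse build GRCm38.p6, from 250 bases before to 50 bases after the start of each gene), where 54 of the 65 tested members matched an entry. The letters searched on both strands were GTTGCC and GTTGCTA, which occur in the X-box that RFX factors bind, and GTAAACA, bound by forkhead factors. None of these contains another. The promoters of 28 members (51.9%) held GTTGCC, against 14.1% of all 27025 genes with a promoter of this length, and 21 members (38.9%) held GTTGCTA, against 4.28%. GTAAACA was found for 5 members (9.26%), against 4.05%. Among the 16 lower members with a promoter, 9 held GTTGCC or GTTGCTA, as did 37 of the 54 (68.5%) and 17.4% of all genes. Shown are 3 lower members with both RFX letter groups and, for contrast, Tmem212, with matched letters in capitals (a match on the other strand reads as its reverse complement). Ttc21a lies at chr9:119937356-119937655 on the plus strand, Iqca at chr1:90153387-90153686 on the minus strand, Cfap44 at chr16:44394549-44394848 on the plus strand and Tmem212 at chr3:27896319-27896618 on the minus strand.
Ttc21a: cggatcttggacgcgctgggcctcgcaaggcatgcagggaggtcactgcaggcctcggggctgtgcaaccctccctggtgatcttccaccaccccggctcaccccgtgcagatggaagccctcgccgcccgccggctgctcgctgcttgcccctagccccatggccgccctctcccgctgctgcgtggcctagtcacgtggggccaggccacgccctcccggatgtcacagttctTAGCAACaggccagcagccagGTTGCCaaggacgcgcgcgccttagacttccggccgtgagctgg
Iqca: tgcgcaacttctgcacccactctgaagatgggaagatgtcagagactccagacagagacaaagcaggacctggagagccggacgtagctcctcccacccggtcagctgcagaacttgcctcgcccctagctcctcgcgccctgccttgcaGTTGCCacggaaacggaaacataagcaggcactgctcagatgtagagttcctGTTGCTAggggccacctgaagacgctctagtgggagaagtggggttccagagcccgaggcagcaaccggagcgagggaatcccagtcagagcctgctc
Cfap44: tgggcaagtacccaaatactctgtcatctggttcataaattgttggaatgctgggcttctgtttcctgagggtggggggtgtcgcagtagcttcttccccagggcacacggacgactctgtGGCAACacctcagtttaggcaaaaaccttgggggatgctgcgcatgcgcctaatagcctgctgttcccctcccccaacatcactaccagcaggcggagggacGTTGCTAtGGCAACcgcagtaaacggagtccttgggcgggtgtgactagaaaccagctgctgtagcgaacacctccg
Tmem212: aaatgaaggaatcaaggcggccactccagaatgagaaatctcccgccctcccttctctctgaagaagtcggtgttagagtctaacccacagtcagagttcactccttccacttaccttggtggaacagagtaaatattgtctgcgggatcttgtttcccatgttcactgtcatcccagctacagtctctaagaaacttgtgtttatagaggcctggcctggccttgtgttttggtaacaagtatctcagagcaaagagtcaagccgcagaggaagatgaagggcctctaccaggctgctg

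In the Ttc21a promoter, GTTGCTA (bases 236 to 242, other strand) and GTTGCC (bases 257 to 262) lie on either side of the gene start. In Cfap44, GTTGCTA (bases 224 to 230) is followed after 1 base by GTTGCC on the other strand (bases 232 to 237). Iqca has GTTGCC at bases 151 to 156 and GTTGCTA at bases 203 to 209. None of the 3 letter groups occurs in the Tmem212 window. Such matches describe the sequence alone. The letters were settled on after other spellings had also been counted.

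Among markers of neighbouring cells, 1 of 17 tanycyte genes and 1 of 18 astrocyte genes were lower at an unadjusted p under 0.05. The share of all genes was 1.40%. Both counts came from Vim (vimentin), a gene on both lists. Vim had 23.3, 18.5 and 15.4 CPM in Ob + RSV, against 34.2, 35.4 and 29.3 CPM in C, without overlap (log2FC −0.78, SE 0.24, unadjusted p = 0.00309). The summed level of the tanycyte list was 350, 236 and 313 CPM in Ob + RSV, against 408, 363 and 304 CPM in C. Of 16 choroid plexus genes, 1 was lower, against 1.40% of all genes. This was Slc13a4, a sulfate transporter (log2FC −1.49, unadjusted p = 0.0499, and −0.33 without C replicate 1), with 0.913, 3.54 and 1.82 CPM in Ob + RSV against 11.9, 4.27 and 1.05 CPM in C. The median of that list was −0.61, although its summed level of 183, 210 and 244 CPM in Ob + RSV overlapped the 229, 227 and 160 CPM of C. The part that the amount of ventricle wall in each dissection has in the lower cilia genes was not tested.

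Genes of cholinergic neurons were higher in Ob + RSV, but most of their count depended on 1 library. This list of 12 genes was added after the values of all genes had been seen, so its counts are a description. At an unadjusted p under 0.05, 7 of 12 (58.3%) were higher and 0 lower, against 1.47% of all genes for higher, with a median log2FC of 1.92. Chat, the enzyme that makes acetylcholine, had 0.533, 5.28 and 18.7 CPM in Ob + RSV, against 0.682, 1.65 and 0.527 CPM in C (log2FC 3.10, SE 0.81, unadjusted p = 0.000627). Slc5a7, the choline transporter, had 2.89, 5.79 and 38.2 CPM in Ob + RSV, against 2.17, 2.79 and 1.53 CPM in C (log2FC 2.84, SE 0.76, unadjusted p = 0.000774). Ob + RSV replicate 3 was far above the other libraries, and Ob + RSV replicate 1 was within the C range for Chat and just above it for Slc5a7. Ob + RSV replicate 2 lay above every C library for both genes.

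Ngfr, a neurotrophin receptor, which cholinergic neurons of the basal forebrain carry, was also highest in Ob + RSV replicate 3. It had 8.86, 8.59 and 38.5 CPM in Ob + RSV, against 4.35, 5.63 and 8.48 CPM in C (log2FC 1.60, SE 0.44, unadjusted p = 0.000968), and its groups did not overlap. Of the transcription factors of these neurons, Lhx8 had 0.0761, 7.49 and 24.6 CPM in Ob + RSV, against 2.34, 1.88 and 1.39 CPM in C, and Gbx1 had 0.304, 4.64 and 9.88 CPM in Ob + RSV, against 0.128, 1.25 and 1.1 CPM in C. For Lhx8, Ob + RSV replicate 1 was below every C library. Slc10a4, a vesicle protein of cholinergic and monoamine neurons, was also higher, with a log2FC of 1.21. Lhx6, a factor of forebrain interneurons on the list of hypothalamic transcription factors, had 5.9, 19.3 and 49.6 CPM in Ob + RSV, against 9.2, 8.08 and 6.95 CPM in C (log2FC 1.61, unadjusted p = 0.00419). By contrast, Ache, which breaks acetylcholine down, had 341, 325 and 306 CPM in Ob + RSV, against 346, 329 and 364 CPM in C (log2FC −0.09).

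Without Ob + RSV replicate 3, 1 of the 12 cholinergic genes was higher at an unadjusted p under 0.05 and the median log2FC was 0.53. With library weights (limma voom), 2 were higher and Lhx8 turned to −0.56. The library with the highest cholinergic values also had the lowest levels of a pair of satiety peptide genes. Pomc, the precursor of the satiety peptide α-MSH, had 166, 56.8 and 2.53 CPM in Ob + RSV against 50.8, 62.1 and 72.6 CPM in C. Cartpt, the other one, had 240, 124 and 38.3 CPM in Ob + RSV against 84.8, 101 and 125 CPM in C. The summed level of 23 hypothalamic transcription factors was 439, 307 and 277 CPM in Ob + RSV, against 331, 336 and 415 CPM in C. The part of the dissection borders in the cholinergic values was not tested. In Ob vs. C, 3 of the 12 genes were higher (median log2FC 1.26), against 1.35% of all genes. Ob replicate 3 had the highest Ob value of Slc5a7, Ngfr and Lhx8, but Ob replicate 2 that of Chat. Leaving out Ob + RSV replicate 3 gave log2FCs in Ob + RSV vs. C of 1.59 for Chat, 1.00 for Slc5a7, 0.52 for Ngfr, 1.57 for Gbx1, 0.97 for Lhx8 and 0.63 for Lhx6.

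**Figure D3:**
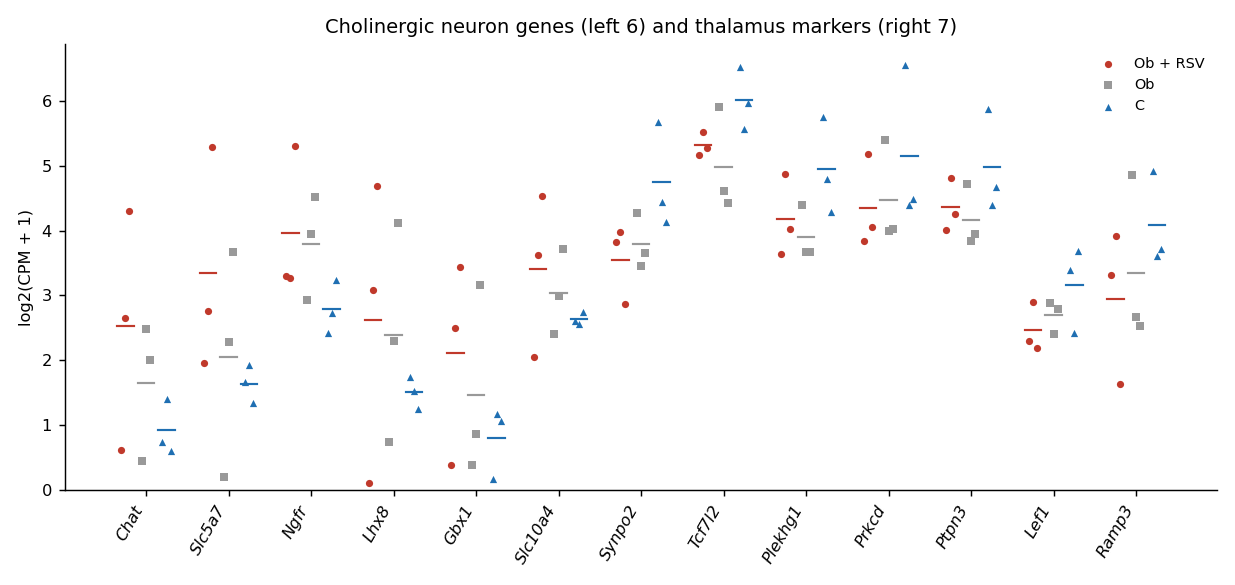
log2(CPM + 1) of 6 of the 7 cholinergic genes (left) and of the 7 thalamus markers (right) at an unadjusted p under 0.05 in Ob + RSV vs. C, 1 point per library and a bar at the mean of each group. For cholinergic genes 1 Ob + RSV library (replicate 3) lies above the rest, and for most thalamus markers 1 C library (replicate 1) does.

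Thalamus markers were lower in Ob + RSV, and here a C library stood out. All 13 had a log2FC below 0, 7 (53.8%) were lower at an unadjusted p under 0.05, against 1.40% of all genes, and the median log2FC was −0.77. Synpo2, an actin-binding protein, had 13.1, 14.7 and 6.29 CPM in Ob + RSV, against 50, 20.6 and 16.5 CPM in C, without overlap (log2FC −1.36, SE 0.36, unadjusted p = 0.000678). Tcf7l2, a transcription factor of thalamic neurons, had 34.7, 44.9 and 37.5 CPM in Ob + RSV, against 91.2, 46.1 and 61.2 CPM in C (log2FC −0.77, unadjusted p = 0.0159). Prkcd, a protein kinase C, had 13.3, 35.1 and 15.6 CPM in Ob + RSV, against 92.8, 20 and 21.4 CPM in C (log2FC −1.10). Plekhg1 (−0.85), Ptpn3 (−0.78), Lef1 (−0.88) and Ramp3 (−1.08), a receptor partner of calcitonin receptors, completed the count. C replicate 1 was highest for 6 of these 7 genes. Without it, 0 of the 13 markers were lower at an unadjusted p under 0.05 and the median was −0.27, with Synpo2 at −0.67. Without Ob + RSV replicate 1, 3 were lower. In Ob vs. C, 7 markers were lower as well, against 1.40% of all genes, with a median of −0.72. That comparison shares the same C libraries. The part of neighbouring thalamus in C replicate 1 was not tested, and its summed marker level was 1145 CPM, against 776 and 881 CPM in the other C libraries and 775, 818 and 586 CPM in Ob + RSV.

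Fibroblast and collagen genes were lower in part. Of 37 tested, 9 (24.3%) were lower and 0 higher at an unadjusted p under 0.05, against 1.40% of all genes for lower. The median log2FC was −0.31, and it was −0.12 without C replicate 3. In all, 28 members had a log2FC below 0 and 9 above 0, among them Lum (1.63) and Col13a1 (0.71). The summed level of the list was 656, 917 and 916 CPM in Ob + RSV, against 889, 726 and 1269 CPM in C, and the groups overlapped. Col5a3, a chain of collagen V, had 7.19, 8.78 and 11.6 CPM in Ob + RSV, against 17, 22.1 and 25.3 CPM in C. The groups were fully separated, with a log2FC of −1.22 (SE 0.29, unadjusted p = 0.000192), or 2.33-fold lower, and the log2FC stayed between −1.41 and −1.09 with any of the 6 libraries left out. Col26a1 had 3.96, 8.91 and 9.7 CPM in Ob + RSV, against 11.5, 9.73 and 21.8 CPM in C (log2FC −0.94, and −0.52 without C replicate 3), and Col1a1, of the main fibrillar collagen, had 3.99, 1.47 and 5.64 CPM in Ob + RSV, against 8.27, 7.51 and 7.28 CPM in C (log2FC −1.04). Both were separated, unlike Fn1 (fibronectin), whose log2FC of −1.09 came from 40.7 CPM in C replicate 1 and turned to 0.05 without that library. The other lower members were Slc6a13 (−1.21), Col5a2 (−0.81), Col1a2 (−0.69), Col8a2 (−1.15) and Col15a1 (−0.61). The count was 5 without C replicate 1 or without Ob + RSV replicate 2. The abundant vessel wall chains Col4a1 and Col4a2 had log2FCs of −0.21 and −0.29 and did not pass. Of 24 endothelial and mural genes 0 were lower and 1 was higher, against 1.40% and 1.47% of all genes. The higher one was the transporter Slco1a4 (log2FC 0.61).

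Genes of oligodendrocytes, the cells that make myelin, had mostly small positive log2FCs. Of 23 members, 22 had a log2FC above 0, 4 (17.4%) were higher at an unadjusted p under 0.05, against 1.47% of all genes, and the median was 0.34. Mog, a glycoprotein of the outer myelin surface, had 70.5, 86.7 and 61 CPM in Ob + RSV, against 49.8, 56.4 and 42.8 CPM in C (log2FC 0.55, SE 0.22, unadjusted p = 0.0157). Ugt8a, which makes the myelin lipid galactosylceramide, was also higher, with a log2FC of 0.57. Mbp, a major myelin protein, had a log2FC of 0.24 (unadjusted p = 0.344). The summed level of the list was 9769, 8471 and 9001 CPM in Ob + RSV, against 6801, 6202 and 8885 CPM in C. Without C replicate 2, 1 of the 23 members was higher at an unadjusted p under 0.05.

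**Figure D4:**
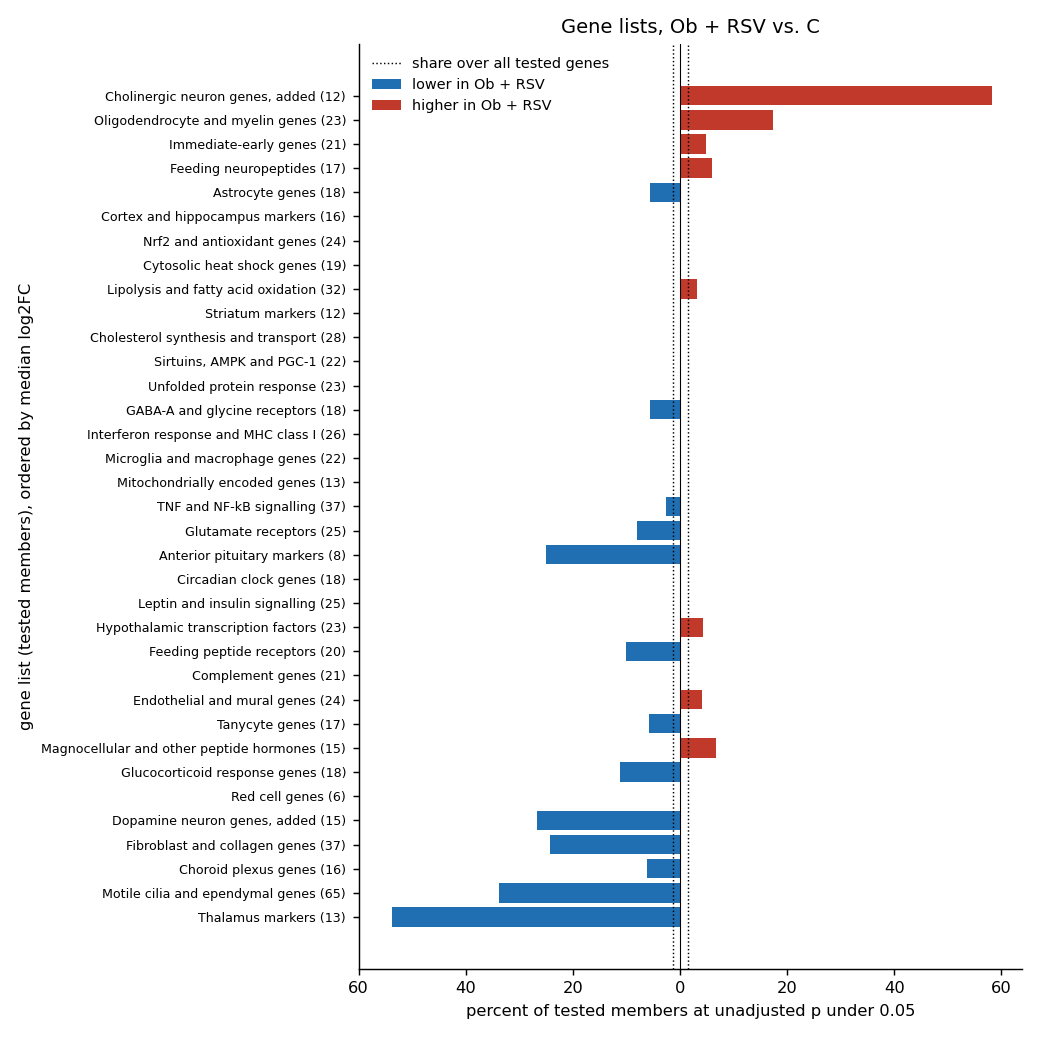
Percent of tested members of each gene list at an unadjusted p under 0.05, to the left where lower and to the right where higher in Ob + RSV than in C, with lists ordered by median log2FC and the number of tested members in brackets. Dotted lines mark the shares over all genes (1.40% lower, 1.47% higher). Bars stand out for cholinergic and myelin genes on the higher side and for thalamus, cilia, fibroblast, dopamine and pituitary genes on the lower side. The pituitary bar is 2 of 8 genes, Prl and Gh, which had 0 reads in C replicate 2. In that list 4 genes were above 0 and 4 below, with a median log2FC of −0.09.

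Among feeding neuropeptides, 1 of 17 tested genes passed, against 2.87% of all genes. Pmch, the precursor of melanin-concentrating hormone, a peptide of the lateral hypothalamus that promotes feeding, had 531, 457 and 460 CPM in Ob + RSV, against 241, 230 and 364 CPM in C. All Ob + RSV libraries were above all C libraries, with means of 483 ± 41.7 CPM and 278 ± 74.7 CPM (SD, n = 3 each). The log2FC was 0.81 (SE 0.24, unadjusted p = 0.00249 from edgeR), or 1.75-fold, and it was 0.15 in Ob vs. C, against 0.66 in Ob + RSV vs. Ob. It stayed between 0.68 and 1.03 with any of the 6 libraries left out. The arcuate peptides did not separate. Npy, which promotes feeding, had 33.7, 23.5 and 7.35 CPM in Ob + RSV, against 23.1, 7.17 and 61.9 CPM in C (log2FC −0.49, unadjusted p = 0.29), and Agrp, its partner in the same neurons, was near its detection limit with 0 to 0.941 CPM in Ob + RSV and 0.335 to 2.11 CPM in C. Pomc had a log2FC of 0.32 (unadjusted p = 0.579) and Cartpt of 0.40 (unadjusted p = 0.292), both with the widest spread in Ob + RSV.

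Of 15 magnocellular and other peptide hormone genes, 1 was higher, against 1.47% of all genes. This was Tac2 (neurokinin B), with 32.1, 47.5 and 61.3 CPM in Ob + RSV against 24.2, 35.7 and 36.2 CPM in C (log2FC 0.56, unadjusted p = 0.0245). Its groups overlapped, since Ob + RSV replicate 1 lay within the C range, and the log2FC was 0.32 without Ob + RSV replicate 3. Oxt (log2FC −0.51, unadjusted p = 0.0945) and Avp (−0.19, unadjusted p = 0.55) overlapped and did not pass. Of 20 feeding peptide receptors, 2 were lower, against 1.40% of all genes. Calcr, the calcitonin and amylin receptor, had 19.6, 13.6 and 27 CPM in Ob + RSV against 31.9, 26.6 and 36.5 CPM in C (log2FC −0.65, unadjusted p = 0.0179). The other was its partner Ramp3. Of 18 GABA-A and glycine receptor genes 1 was lower and of 25 glutamate receptor genes 2 were, against 1.40% of all genes. These were Gabra4, a GABA-A receptor subunit (log2FC −0.51), and the metabotropic glutamate receptors Grm4 (−0.74) and Grm2 (−0.67). Grm2 had 38.8, 30.6 and 17.3 CPM in Ob + RSV, against 53.7, 48 and 37.1 CPM in C.

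Dopamine neuron genes, a list also added after all values had been seen, gave 4 lower members of 15 (26.7%), against 1.40% of all genes, with a median log2FC of −0.27. In this list 10 members were below 0 and 5 above, among them En2 (0.98), Drd2 (0.19) and Aldh1a1 (0.18). Slc6a3, the dopamine transporter, had 3.8, 2.66 and 1.23 CPM in Ob + RSV, against 14.6, 6.71 and 4.94 CPM in C, without overlap (log2FC −1.76, SE 0.48, unadjusted p = 0.00098). Slc18a2, the vesicular monoamine transporter, had a log2FC of −0.62, Ret, a receptor of neurotrophic factors, also −0.62, and Lmx1b, a factor of midbrain monoamine neurons, −0.88. Th, which makes the dopamine precursor, overlapped, with 48.4, 42.5 and 25.7 CPM in Ob + RSV and 55.9, 51.7 and 34 CPM in C (log2FC −0.27, unadjusted p = 0.292). Without C replicate 1 the median of the list was 0.16 and 2 members were lower, with log2FCs of −1.13 for Slc6a3 and −0.21 for Ret. The median was −0.043 without Ob + RSV replicate 3 and −0.49 without Ob + RSV replicate 1.

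Counts for pathways linked to RSV and to obesity lay near the 2.87% of all genes that passed in either direction, a share that gives about 1 gene or fewer in a list of this size, so they say nothing about the members. Of 22 genes of sirtuins, AMPK and PGC-1, 0 passed an unadjusted p of 0.05 in either direction and the median log2FC was −0.00057. Sirt1 had 12.4, 18.6 and 27.6 CPM in Ob + RSV, against 17, 12.1 and 18.6 CPM in C (log2FC 0.29, unadjusted p = 0.338). The catalytic AMPK subunits Prkaa1 and Prkaa2 had log2FCs of −0.16 and −0.05, and Ppargc1a, the coactivator PGC-1α, had 29.5, 37.4 and 48.6 CPM in Ob + RSV, against 34.8, 28.9 and 19 CPM in C (log2FC 0.48, unadjusted p = 0.067). Likewise, 0 members passed among 24 Nrf2 and antioxidant genes, 25 genes of leptin and insulin signalling, 18 clock genes, 23 genes of the unfolded protein response, 19 cytosolic heat shock genes, 28 genes of cholesterol synthesis and transport and 13 mitochondrially encoded genes. Hadhb, of mitochondrial fatty acid oxidation, was the 1 member of 32 in its list that was higher, with 31.5, 24 and 29.8 CPM in Ob + RSV against 19.3, 17 and 24.1 CPM in C (log2FC 0.51, unadjusted p = 0.0418). Of 21 immediate-early genes, Arc, a gene induced by synaptic activity, was higher (log2FC 0.53, unadjusted p = 0.0497), with no overlap.

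The same holds for lists of inflammatory genes. Of 22 microglia and macrophage genes, 26 interferon and MHC class I genes and 21 complement genes, 0 passed in either direction, with median log2FCs of −0.06, −0.05 and −0.13. Of 37 TNF and NF-kB genes, Ikbke, a kinase of that pathway, was lower, with 1.1, 0.827 and 3.12 CPM in Ob + RSV against 3.11, 5.35 and 4.55 CPM in C (log2FC −1.36, unadjusted p = 0.0253, and −2.13 without Ob + RSV replicate 3). Hc (complement component C5), Gbp11 and Nlrc4 (an inflammasome sensor) are on none of these lists and did pass, with log2FCs of −4.90, 2.07 and 1.72. Gbp11, of the family of interferon-induced GTPases, is classed in the annotation as a polymorphic pseudogene. The interferon list had 5 higher members in Ob vs. C (median 0.53), against 1.35% of all genes. In Ob + RSV vs. Ob it had 7 lower members (median −0.48), against 1.50% of all genes. Both comparisons share libraries with Ob + RSV vs. C. Its summed level was 394, 308 and 313 CPM in Ob + RSV, 425, 494 and 432 CPM in Ob and 330, 309 and 379 CPM in C. Among 18 glucocorticoid response genes, Fkbp5, a brake on the glucocorticoid receptor, had 26.7, 14.8 and 24.1 CPM in Ob + RSV, against 51.8, 26.9 and 24.4 CPM in C (log2FC −0.65, unadjusted p = 0.0479), and its log2FC was −0.19 without C replicate 1. Lcn2 (lipocalin 2) had reads mainly in C replicates 1 and 2 (log2FC −3.99, unadjusted p = 0.0396).

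The 9 genes that the study drew attention to as changed by obesity and by RSV had been chosen on these libraries, so their counts are no independent evidence. Matching by gene ID gave 8 of them among the tested genes. Of these 8, 0 passed an unadjusted p of 0.05 in Ob + RSV vs. C, against 2.87% of all genes. Rilp, a lysosomal adaptor of Rab7, came closest, with 1.48, 1.15 and 1.23 CPM in Ob + RSV against 1.66, 2.96 and 3.02 CPM in C (log2FC −0.96, unadjusted p = 0.0908) and no overlap. Ppargc1b, the coactivator PGC-1β, had 2.32, 7.03 and 3.82 CPM in Ob + RSV, against 3.54, 6.83 and 2.11 CPM in C (log2FC 0.08), with full overlap. For the chemokine gene Ccl27a the study's ID was not analysed here. The ID that carries this symbol in the annotation used is a different one, ENSMUSG00000073888, and it had 60.8, 54.4 and 40.4 CPM in Ob + RSV, against 39.1, 52.1 and 65.9 CPM in C (log2FC 0.0036). Aqp7, Lta, C1ra and Snai1 were each under 1 CPM in all 6 libraries, and Gbgt1 and M6pr-ps overlapped as well. The study reports these genes as altered by obesity and turned back by RSV, which Ob + RSV vs. C alone does not test. Relative to Ob, Rilp (log2FC −1.98) and Snai1 (−2.41) were lower in Ob + RSV at an unadjusted p under 0.05. Snai1 had 4.02, 0.935 and 0.319 CPM in Ob, against 0.457, 0.322 and 0.235 CPM in Ob + RSV. Most of its Ob reads came from Ob replicate 1, and the groups overlapped. Gbgt1 (2.38) and Ppargc1b (1.38) were higher. Between Ob and C, only Ppargc1b passed (−1.30). M6pr-ps had the opposite sign to the study in each case (−0.12 for Ob minus C, 0.14 for Ob + RSV minus Ob).

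Outside the lists, the smallest p of all genes belonged to the predicted gene Gm47283, with 60.4, 74.5 and 73.4 CPM in Ob + RSV against 32, 33.4 and 23.7 CPM in C (log2FC 1.23, SE 0.24, unadjusted p = 1.87e-05, adjusted p = 0.627 from edgeR). The groups were well separated, and its log2FC stayed between 1.08 and 1.31 with any of the 6 libraries left out. Gm21887, another predicted gene, had 126, 135 and 142 CPM in Ob + RSV, against 59.8, 91.8 and 55.8 CPM in C (log2FC 0.97, SE 0.23). The annotation places Gm47283 on chromosome Y and Gm21887 on chromosome X, and reads of such copies may be split between them, so both levels are uncertain. In Ob vs. C their log2FCs were 0.79 and 0.60, and in Ob + RSV vs. Ob 0.43 and 0.37. The study lists Gm47283 as higher in Ob vs. C and lower in Ob + RSV vs. Ob. The value here for Ob + RSV vs. Ob has the opposite sign. Tmem125, a membrane protein gene, had 10.8, 18.9 and 12.1 CPM in Ob + RSV, against 8.18, 5.41 and 3.88 CPM in C (log2FC 1.25, SE 0.34).

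St6galnac2, a sialyltransferase, had no read in Ob + RSV and 13, 12 and 17 reads in C, which puts it at least 14.7-fold lower when a floor of 3 reads over the Ob + RSV group is used. Hc, complement component C5, had 0, 0 and 4 reads in Ob + RSV, against 28, 28 and 84 reads in C. In all, 164 tested genes had no read in Ob + RSV and reads in each C library, and 50 had the opposite pattern. Leaving aside Ob + RSV replicate 2, the library with few low counts, these numbers were 221 and 151. Unnamed IDs among the smallest p values were ENSMUSG00000129048 (log2FC 1.32) and ENSMUSG00000135512 (14, 39 and 20 reads in Ob + RSV against 1, 0 and 0 in C) on the higher side, and ENSMUSG00000125923 and ENSMUSG00000120673 on the lower side, where nearly all reads of each ID came from 1 C library.

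Of the largest differences among named genes with a mean of at least 1 CPM and separated groups, 169 genes met the rule, 48 higher and 121 lower. Besides Slc5a7 and Ngfr, the largest increases were in the polymorphic pseudogene Gbp11 (log2FC 2.07), Pdzd9 (1.91), Nlrc4 (1.72) and Shisa8, an AMPA receptor partner (1.49). The rest were the predicted genes Gm48536, Gm30122, Gm45159 and Gm43062. Nlrc4 had 2.32, 4 and 2.82 CPM in Ob + RSV, against 1.19, 0.683 and 0.863 CPM in C. Besides Tmem212, Hc, Ccdc170 and Armc4, the largest decreases were in Glcci1 (−2.71), Pcdha11, a clustered protocadherin (−2.65), Itih2, a carrier of hyaluronan (−2.59), 2610035F20Rik (−2.39), Nek5, a kinase (−2.33), and Kcnmb1, a subunit of a potassium channel of smooth muscle (−2.27). For each of these 6 and for Armc4 and Ccdc170, Ob + RSV replicate 2, the library with few low counts, had 0 CPM. Kcnmb1 had 0.685, 0 and 0.764 CPM in Ob + RSV, against 2.68, 2.62 and 1.82 CPM in C.

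**Figure D5:**
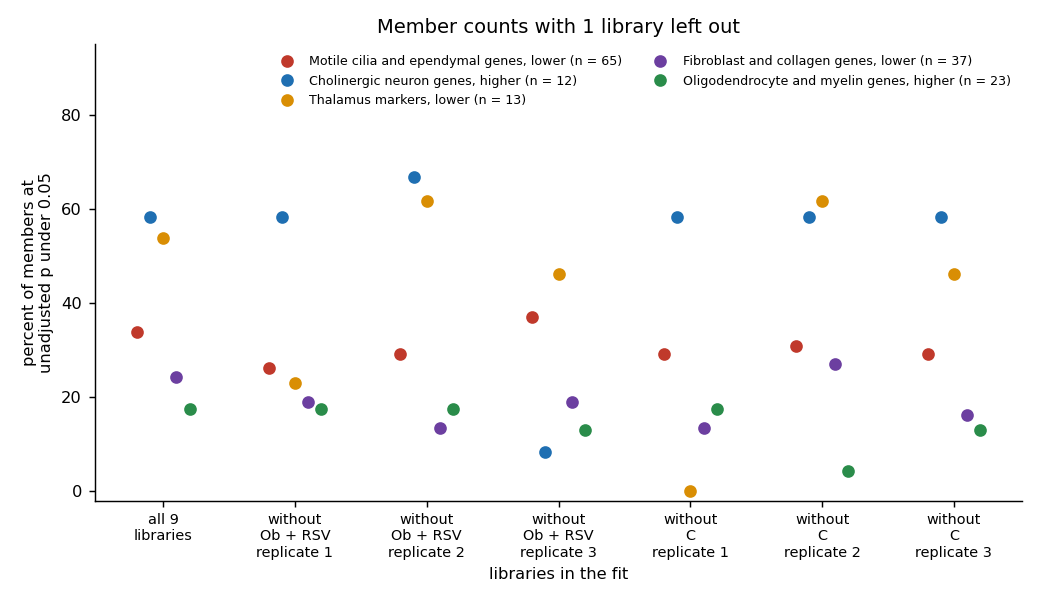
Percent of list members at an unadjusted p under 0.05 in Ob + RSV vs. C (vertical axis) in the fit of all 9 libraries and with each Ob + RSV or C library left out (horizontal axis), 1 colour per list. Motile cilia genes stay between 26.2% and 36.9%, cholinergic genes drop to 8.33% without Ob + RSV replicate 3 and thalamus markers to 0% without C replicate 1.

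The lists differed in how far their counts rested on 1 library. With any 1 of the 6 libraries left out, 17 to 24 cilia genes were lower at an unadjusted p under 0.05 and the median log2FC of the list lay between −0.67 and −0.58. Without Ob + RSV replicate 2 and C replicate 2 together, 17 were lower and the median was −0.69. Without Ob + RSV replicate 1 alone, 3 genes became DEGs, among them Chat, which was higher, and Bsx, a transcription factor of arcuate feeding neurons that was lower.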

How the data were processed

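RNA was extracted with TRIzol, and strand-specific poly(A) libraries were sequenced as read pairs. Reads were aligned with HISAT2 and counted per gene with featureCounts by the authors, whose deposited table holds whole, unscaled counts (build GRCm39 and FastQC are named in the submitters' processing notes). How strand and multi-mapped reads were handled, and which annotation release served, is not given in the sources used here. Antisense genes, pseudogenes and near-identical copies are therefore uncertain. Symbols were matched by gene ID for 51486 of 78334 IDs (65.7%, with 98.1% of counts), and biotypes came from GENCODE.

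Ob + RSV vs. C was tested with edgeR 4.0.16 in R 4.3.3 (quasi-likelihood F-test, TMM scaling) in 1 fit of the 9 libraries of Ob + RSV, Ob and C, with 6 residual degrees of freedom, and p-values were adjusted by Benjamini-Hochberg over 33534 genes. CPM was computed per library. Following the study, DEGs needed an adjusted p under 0.05 together with an absolute log2FC of 1 or more. Standard errors come from the F statistic. Lists were described by counts and medians, with no test. Members, lists and alternatives were chosen with earlier results of these data known, and the cholinergic and dopamine lists were added after the values of all genes had been seen. Named were the 20 genes with the smallest p, the 10 largest increases and decreases among genes with a symbol, a mean of at least 1 CPM, an unadjusted p under 0.05 and separated groups, up to 3 members per list with the smallest p, the 9 genes of the study and 10 peptide and RSV pathway genes. Members of the 6 lists described in most detail were also named beyond this rule, after their values had been seen. Alternatives were RLE and upper quartile scaling, other filters, other sets of libraries, DESeq2 1.42.0, limma 3.58.1 (voom with sample weights), a replicate block and leaving out libraries. Values of some list members are not reported here, although the members stayed in all counts and medians. The procedure was tested on simulated counts, in which only genes of higher counts were changed. Their spread was smaller than in these libraries (biological coefficient of variation 59.6%), so that test does not show what could be detected here. Replicate numbers were not treated as pairs. Python 3.11.15 with pandas 2.3.3 and matplotlib 3.10.9 served for tables and plots. Ob + EAE and Ob + CUR libraries entered only the fit of 12 libraries.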

Additional observations from a re-analysis of the deposited data

How the results depend on the processing

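The count of DEGs in Ob + RSV vs. C was 0 in the fit used here. It was 32 with genes of at least 1 read kept and 1 with DESeq2 on 6 libraries (Gm47283). With the replicate block it was 35 (24 genes shared with the 32, among them Tmem212, Ttc21a, Dnah11, Ak7, Col5a3, Slc5a7 and Ngfr). With 1 library left out it ran from 0 to 3, and it was 0 under all other alternatives. The cause of these differences was not tested. Same-numbered libraries of Ob + RSV and C deviated together with correlations of 0.048, 0.062 and −0.014, so the numbers were not taken as pairs. Genes at an unadjusted p under 0.05 numbered 962 in the fit used here, 341 with filterByExpr and 1593 with the 12 libraries. With 1 library left out they numbered 494 to 1714 (534 without C replicate 2). Lower cilia genes numbered 16 to 27 over all alternatives. Lower thalamus markers numbered 1 with filterByExpr, and 4 with DESeq2 on 9 or 6 libraries. Lower fibroblast genes numbered 5 with filterByExpr or DESeq2 on 9 libraries and 6 with DESeq2 on 6 libraries, with 10 reads over the 6 libraries or without C replicate 3. Higher myelin genes numbered 9 with the replicate block, 7 with 12 libraries and 1 without both libraries numbered 2. Higher cholinergic genes numbered 5 with DESeq2 on 9 libraries. Of 66 named genes at an unadjusted p under 0.05, the log2FC moved by over 1.5 times for 35 with 1 library left out, 16 of them without Ob + RSV replicate 3 and 12 without C replicate 1.

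Of 38 log2FCs that changed sign, over 16 genes, only those of Fn1 and Lhx8 belonged to genes at an unadjusted p under 0.05. With 1 library left out, log2FCs of Ob + RSV minus C ran for Agrp from −2.86 to 0.18, Aqp7 from −3.77 to 1.04, Avp from −0.48 to 0.13, C1ra from −0.80 to 0.46, Cartpt from −0.37 to 0.84, Ccl27a from −0.16 to 0.19, Fn1 from −1.44 to 0.054, Gbgt1 from −0.046 to 1.12, M6pr-ps from −0.44 to 0.34, Npy from −1.01 to 0.50, Pomc from −1.08 to 0.88, Ppargc1b from −0.40 to 0.61, Prkaa1 from −0.45 to 0.00060, Prkaa2 from −0.45 to 0.20 and Sirt1 from −0.041 to 0.51. Without Ob + RSV replicate 2 and C replicate 2, the log2FCs that changed sign were Agrp 0.75, C1ra 0.25, Ccl27a −1.2e-05, Gbgt1 −0.50, Prkaa2 0.077. With the replicate block, the log2FCs that changed sign were Ccl27a −0.019, Pomc −0.55. With limma voom and sample weights, the log2FCs that changed sign were Lhx8 −0.56, Pomc −0.89, Ppargc1b −0.14.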
